A study of Mus musculus with 35 samples.

Results

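Linear ubiquitin signalling was followed through 8 genes in single cultured fibroblasts from mouse embryos (MEFs, cells of connective tissue). The genes are Sharpin, its partners Rnf31 and Rbck1, and the TNF receptor complex genes Cyld, Ikbkg, Ripk1, Traf2 and Birc2. They were taken by symbol from a table of 19085 genes, and each of the 8 symbols was found. The set was chosen from measured values of the same comparison, in which Sharpin stood out, so every difference between the groups given for these genes is a description. All cells were C57Bl/6J, were grown in 3% oxygen and received 1 Gy of ionising radiation; they were re-seeded on membrane dishes 32 h after the dose, stained with PicoGreen and cut out by laser at 48 h. One group is 21 cells with micronuclei, which are pieces of chromatin enclosed in their own envelope apart from the nucleus, and the other is 14 cells without micronuclei. Both groups were irradiated, and unirradiated cells were not analysed here. RNA was copied by Smart-seq2, which reads whole polyadenylated transcripts and counts reads without molecular identifiers. Every library is 1 cell and the labels give no culture or embryo of origin; each group was therefore treated as 1 sample, without p-values and without a check on replicates. Intervals are 95% exact Poisson intervals for summed reads and exact Clopper-Pearson intervals for shares of cells, and both cover counting error only.

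The linear ubiquitin chain assembly complex (LUBAC) joins ubiquitin molecules head to tail through the first methionine. Its catalytic subunit is HOIP, the product of Rnf31, which is held together with HOIL-1, the product of Rbck1, and with SHARPIN. After TNF binds its receptor, TRAF2 brings the ligase cIAP1 (Birc2) to a complex containing RIPK1, LUBAC adds linear chains, and NEMO (Ikbkg) binds these chains and activates the IκB kinases of the NF-κB pathway. CYLD removes linear and lysine-63 chains. Mice without SHARPIN develop a chronic inflammatory dermatitis, and their fibroblasts die more readily in response to TNF.

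SHARPIN and HOIL-1 are related proteins, and each has a small zinc finger of the kind that binds ubiquitin. The coding sequences of these fingers are shown because both transcripts encode a finger of this kind, and because near-identical stretches could split reads between the pair. Both come from GENCODE transcripts on GRCm38, are read 5′ to 3′ on the minus strand, and have the 4 cysteine codons that hold the zinc in capitals. The Sharpin stretch covers codons 345 to 364 of 380 in Sharpin-201, at chr15:76347322-76347381, and the Rbck1 stretch covers codons 195 to 214 of 508 in Rbck1-201, at chr2:152324375-152324434.
Sharpin: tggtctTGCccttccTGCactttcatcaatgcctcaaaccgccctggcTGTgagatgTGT
Rbck1: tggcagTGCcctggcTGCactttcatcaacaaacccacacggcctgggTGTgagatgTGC
Of the 60 bases, 44 were identical (73.3%), and the longest run shared anywhere by the 2 coding sequences was 15 bases.

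Reads on genes numbered 57514 to 1794113 in micronucleated cells (median 281800) and 56766 to 2023111 in cells without micronuclei (median 736715). Levels are given as CPM, reads on genes scaled to a common total with spike-in RNAs left out. Genes that reached 5 CPM in the sum of all cells, and 5 reads in each of at least 5 cells, were taken as measured; 8390 genes passed, among them 6 of the 8 genes here, while Rnf31 and Birc2 did not. Ratios are log2 of (CPM + 1) in micronucleated cells over the same in cells without micronuclei, from reads summed over the cells of a group, and their median over all measured genes was 0.15. Fibroblast markers were abundant in both groups, at a median of 7952 CPM (2873 to 15142) in the micronucleated cells and 9439 CPM (5026 to 16419) in cells without micronuclei, summed over 10 genes. Micronucleated cell 10 also carried 13 of 13 macrophage or leukocyte markers with at least 5 reads, summing to 16709 CPM beside 8215.5 CPM of fibroblast markers. The highest such sum elsewhere was 1452 CPM among micronucleated cells and 64.1 CPM among cells without micronuclei, where every macrophage marker except Cd68 was at 0. The 1452 CPM came from 1 gene, Csf1r, in micronucleated cell 6. Csf1r shares 873 exon bases with Hmgxb3 on the opposite strand. That cell had 2 of 10 fibroblast markers with at least 5 reads, and its fibroblast markers summed to 3350 CPM. Micronucleated cells 4, 6, 18 and 21 and cells 1 and 5 without micronuclei had under 4000 genes or over 9% mitochondrial reads. Values without these 6 cells are given for Sharpin and wherever they moved a named ratio by over 1.5 times. They were not computed for Traf3, Xiap, Tank, Nfkb2, Mlkl, Cxcl5 and Parp1, which were named later. Of the other genes of the set, Rbck1 had a log2 ratio of 0.57 and Ikbkg of 0.86 without these 6 cells.

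Sharpin was the gene of the set with the clearest difference between the groups. Summed over cells it had 708 reads in the micronucleated cells and 10 reads in cells without micronuclei. These sums equal 63.9 CPM (59.3 to 68.8) in the micronucleated cells and 0.861 CPM (0.413 to 1.58) in cells without micronuclei, a ratio of 74.2 (40.1 to 155) and a log2 ratio of 5.12. Per cell, its level ran from 0 through a median of 32.5 to 325.5 CPM in micronucleated cells, and from 0 through a median of 0 to 10.8 CPM in cells without micronuclei. The mean was 52.3 ± 75.6 CPM in the micronucleated cells and 1.25 ± 3.28 CPM in cells without micronuclei (SD over 21 and 14 cells). The groups overlapped at the low end, and 14 of the 21 micronucleated cells lay above the highest cell without micronuclei.

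At least 1 Sharpin read was counted in 17 of 21 micronucleated cells and in 2 of 14 cells without micronuclei. With at least 5 reads as the limit for detection, the transcript was seen in 13 of 21 micronucleated cells (61.9%, 38.4 to 81.9%) and in 1 of 14 cells without micronuclei (7.14%, 0.181 to 33.9%). At least 10 reads were counted in 6 micronucleated cells and in 0 cells without micronuclei. The difference of 54.8 percentage points in detection was the highest of the 8390 measured genes, and a difference at least as large was reached by 0.0119% of them, which is Sharpin alone. Over all measured genes the median difference was 0 points, and the central 95% lay between -28.6 and 28.6 points. By the log2 ratio Sharpin ranked 16 of 8390. As Sharpin was picked for this contrast, these ranks describe its place and carry no further weight.

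**Figure D1:**
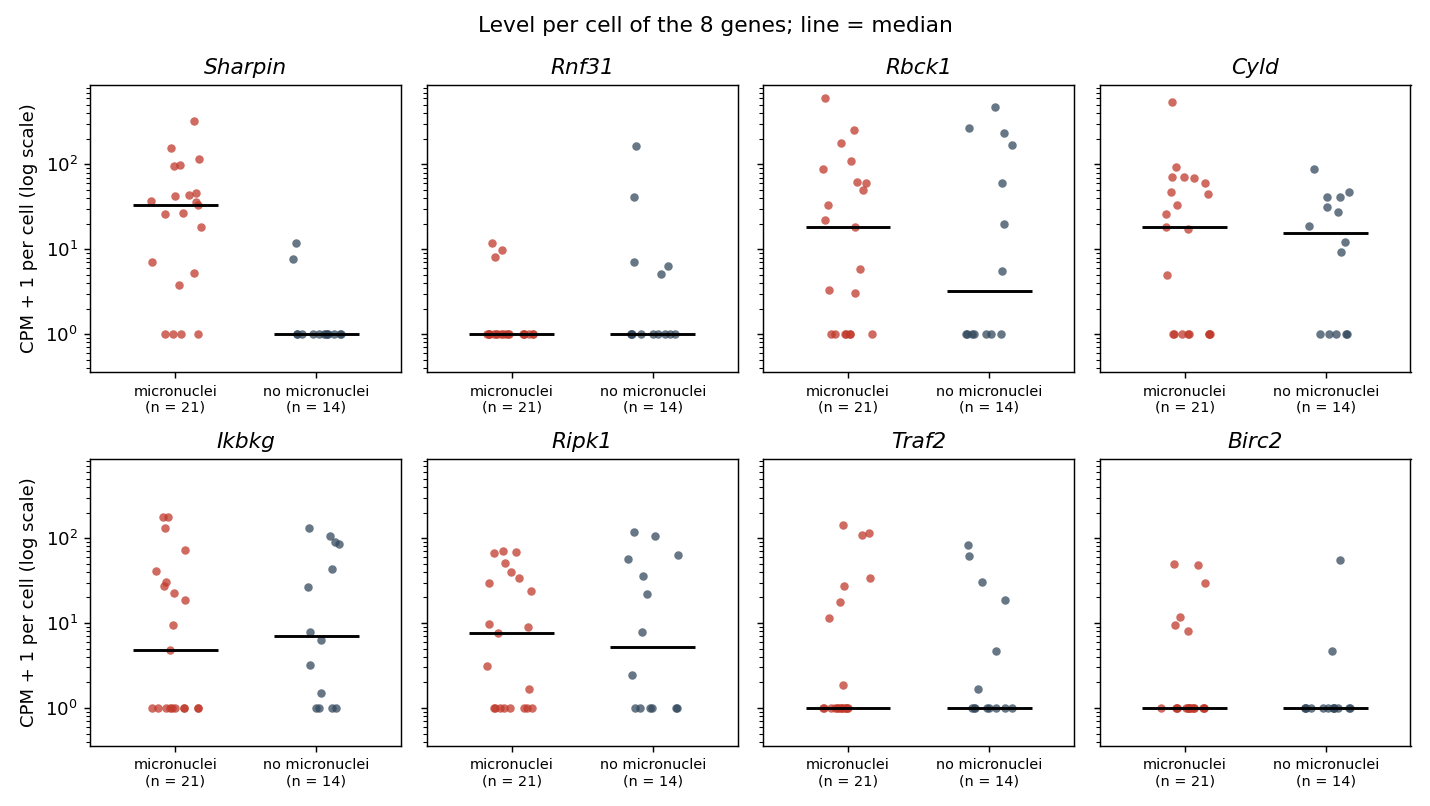
CPM + 1 per cell on a log scale for the 8 genes; each point is 1 cell (21 with micronuclei, left and red; 14 without, right and dark) and the line is the group median. Sharpin reaches 325.5 CPM with micronuclei and at most 10.8 CPM without, while the points of the other 7 genes span similar ranges in both groups or rest on few cells.

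Among micronucleated cells Sharpin varied widely. Cell 11 had 376 reads (325.5 CPM), or 52.4% of all Sharpin reads, followed by cell 7 with 136 reads (94.1 CPM), cell 21 with 67 reads (154.6 CPM), cell 6 with 25 reads (113.5 CPM), cell 10 with 22 reads (35.97 CPM) and cell 2 with 21 reads (42.1 CPM). The 4 micronucleated cells with no read were cells 3, 8, 15 and 17, where a floor of 3 reads equals 7.86 to 14.7 CPM. In the cells without micronuclei, the reads came from cell 13 with 7 reads (10.8 CPM) and cell 3 with 3 reads (6.72 CPM). For the 12 cells without micronuclei at 0 the same floor was 1.48 to 52.8 CPM, with a median of 3.59 CPM, and in 11 of them it lay below the 32.5 CPM median of micronucleated cells.

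The Sharpin ratio kept its direction with each of the 35 cells left out in turn. Without micronucleated cell 11 the gene had 332 reads and 33.4 CPM in micronucleated cells, 12 of 20 of them with at least 5 reads, and the log2 ratio was 4.21, the lowest with any cell left out. Leaving out cell 13 without micronuclei gave 5.67, the highest. Giving every cell equal weight gave 4.57. Without the 6 cells of few genes or many mitochondrial reads, 59.7 CPM remained in micronucleated cells (11 of 17 with at least 5 reads) and 0.992 CPM in cells without micronuclei (1 of 12). Without micronucleated cell 10, the cell with macrophage markers, the level was 65.5 CPM in micronucleated cells. When each cell was thinned to 119337 reads, which left out 5 shallower cells, Sharpin had at least 5 reads in 7 of 17 micronucleated cells (41.2%, 18.4 to 67.1%) and in 0 of 13 cells without micronuclei, which allows a share of up to 23.1%. Median depth, given above, was lower in the micronucleated cells.

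**Figure D2:**
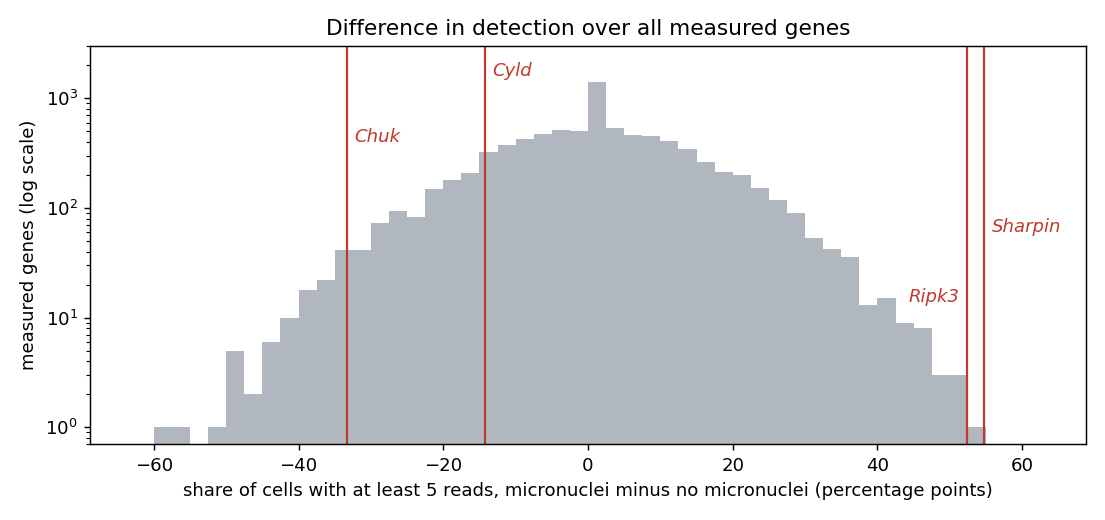
Histogram of the difference in the share of cells with at least 5 reads, micronuclei minus no micronuclei, over 8390 measured genes, with the number of genes on a log scale. Sharpin lies at the right edge at 54.8 points, beside Ripk3 at 52.4 points, while Cyld lies at -14.3 and Chuk at -33.3 points.

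The position of Sharpin in the genome allowed a look at its neighbours. Sharpin lies at chr15:76347040-76351111 (GRCm38, minus strand), with 1734 exon bases, none of them shared with another gene of the annotation used. Maf1, which encodes a repressor of RNA polymerase III, starts 182 bases away and runs in the opposite direction (chr15:76351294-76354380, plus strand), so that both genes start from the same short interval. Maf1 had 95.7 CPM (90.0 to 101.7) in the micronucleated cells and 94.0 CPM (88.5 to 99.7) in cells without micronuclei, a log2 ratio of 0.027. It was detected in 8 of 21 micronucleated cells and 6 of 14 cells without micronuclei. Cyc1, the gene for cytochrome c1, whose end faces that of Sharpin across 779 bases, had 276.3 CPM in the micronucleated cells and 332.4 CPM in cells without micronuclei. The neighbours thus had no difference of the size seen for Sharpin.

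Rnf31, the catalytic subunit of LUBAC, gave few reads outside 1 cell. It lies at chr14:55591708-55603693 on the plus strand and shares 123 exon bases with Irf9. Its sums were 4 reads in micronucleated cells, or 0.361 CPM (0.0983 to 0.924), and 260 reads in cells without micronuclei, or 22.4 CPM (19.8 to 25.3), a log2 ratio of -4.10 (-2.89 with equal weight, -1.004 as a difference of mean log2 levels). Of these reads 234 came from cell 8 without micronuclei (88.6% of all), and leaving it out gave a log2 ratio of -1.38. Per cell, Rnf31 ran from 0 through a median of 0 to 10.8 CPM in the micronucleated cells and from 0 through a median of 0 to 164.9 CPM in cells without micronuclei, and the groups overlapped throughout. At least 5 reads were found in 0 of 21 micronucleated cells (0%, 0 to 16.1%) and in 2 of 14 cells without micronuclei (14.3%, 1.78 to 42.8%). At least 1 read was found in 3 micronucleated cells and in 5 cells without micronuclei.

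Rbck1, whose product HOIL-1 is the other accessory subunit and forms ester bonds between ubiquitin and its targets, did not separate the groups. The gene lies at chr2:152316334-152332653 on the minus strand. It had 91.2 CPM (85.7 to 97.0) in the micronucleated cells and 79.8 CPM (74.8 to 85.1) in cells without micronuclei, a log2 ratio of 0.19. Cell by cell it ran from 0 through a median of 17.4 to 604.3 CPM in the micronucleated cells and from 0 through a median of 2.24 to 471.9 CPM in cells without micronuclei. At least 5 reads were present in 8 of 21 micronucleated cells (38.1%, 18.1 to 61.6%) and in 6 of 14 cells without micronuclei (42.9%, 17.7 to 71.1%). Its sign turned with the weighting: it was -0.31 on the log2 scale with equal weight per cell. Leaving out micronucleated cell 11, which held 698 of the 1011 Rbck1 reads of its group, gave -1.31. That cell was thus the highest of all for both Sharpin and Rbck1.

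Rnf31 was read in few cells, which limits how often the 3 LUBAC genes can be seen together. With at least 5 reads each, all 3 were seen together in 0 cells of either group. Rnf31 itself reached 5 reads in 0 of 21 micronucleated cells and 2 of 14 cells without micronuclei. In micronucleated cells the count was thus fixed by Rnf31, and nothing is read from it. Sharpin and Rbck1 were seen together in 6 of 21 micronucleated cells and 0 of 14 cells without micronuclei, and none of the 3 in 6 micronucleated cells and 5 without. Of the 3, Sharpin was the only one seen in 7 micronucleated cells and 1 cell without micronuclei. Rbck1 was the only one in 2 micronucleated cells and 6 cells without, and Rnf31 in 0 micronucleated cells and 2 cells without. With at least 1 read, all 3 were seen in 3 micronucleated cells and in 1 cell without micronuclei, and Sharpin and Rbck1 together in 11 micronucleated cells and 1 cell without. Rbck1 was thus read at a similar share of cells in both groups while Sharpin was not. Across all 35 cells the Spearman correlation of Sharpin CPM was 0.03 with Rbck1 and -0.02 with Rnf31, and the 28 pairs of the 8 genes lay between -0.24 and 0.38 with a median of 0.04. Depth and the number of genes detected differ from cell to cell and enter the values of all genes of a cell, and with many values at 0 such correlations are descriptions only.

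**Figure D3:**
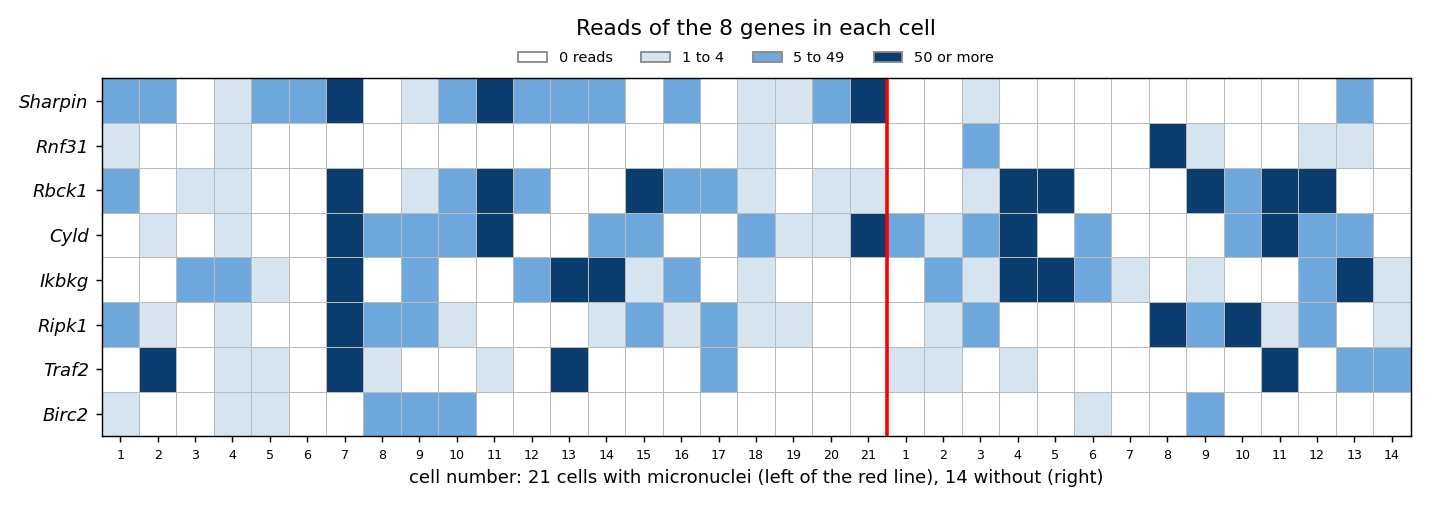
Reads of the 8 genes (rows) in each of the 35 cells (columns), shaded in 4 steps from 0 to 50 or more; the red line separates the 21 micronucleated cells on the left from the 14 cells without micronuclei on the right. The Sharpin row has 17 shaded cells on the left and 2 on the right, and the Rbck1 row has 14 on the left and 7 on the right.

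Cyld, the deubiquitinase that removes linear and lysine-63 chains, was higher in the sum, while its detection changed direction with depth. It lies at chr8:88697028-88751945 on the plus strand. Its level was 51.4 CPM (47.3 to 55.8) in the micronucleated cells and 22.8 CPM (20.2 to 25.7) in cells without micronuclei, a log2 ratio of 1.14. Per cell it ran from 0 through a median of 17.4 to 537.5 CPM in the micronucleated cells and from 0 through a median of 14.4 to 87.6 CPM in cells without micronuclei. The medians lay close together, and 1 cell stood apart: micronucleated cell 21, with 233 reads, held 27.9% of all Cyld reads. Without it the log2 ratio was 0.45, and without the 6 cells of few genes or many mitochondrial reads, to which it belongs, it was 0.30. The difference of mean log2 levels was 0.29. Detection was lower with all reads, with at least 5 reads in 9 of 21 micronucleated cells (42.9%, 21.8 to 66.0%) and 8 of 14 cells without micronuclei (57.1%, 28.9 to 82.3%). At equal depth it was higher, in 6 of 17 micronucleated cells (35.3%) and 3 of 13 cells without micronuclei (23.1%).

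Ikbkg encodes NEMO, the subunit of the IκB kinase complex that binds linear chains. It lies at chrX:74393290-74453854 on the plus strand. It had 51.1 CPM (46.9 to 55.4) in the micronucleated cells and 34.4 CPM (31.1 to 37.9) in cells without micronuclei, a log2 ratio of 0.56. Its values ran from 0 through a median of 3.81 to 176.7 CPM in the micronucleated cells and from 0 through a median of 6.11 to 129.9 CPM in cells without micronuclei, so the ranges were alike and the medians stood in the opposite order to the sums. The equal-weight log2 ratio was -0.07, and single cells moved it between -0.35 (micronucleated cell 13 left out) and 1.31 (cell 4 without micronuclei left out). At least 5 reads were found in 8 of 21 micronucleated cells and 6 of 14 cells without micronuclei.

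Ripk1, the kinase that serves as a scaffold of the receptor complex and can also start cell death, was the measured gene of the set that was lower in micronucleated cells. It lies at chr13:34002363-34037147 on the plus strand and shares 548 exon bases with Gm17084 and, on the opposite strand, Serpinb6a, and whether strand was used in counting is not given, so its count is uncertain. It had 18.6 CPM (16.1 to 21.3) in the micronucleated cells and 27.4 CPM (24.5 to 30.6) in cells without micronuclei, a log2 ratio of -0.54. Per cell it ran from 0 through a median of 6.54 to 69.5 CPM in the micronucleated cells and from 0 through a median of 4.16 to 118.4 CPM in cells without micronuclei. The direction rested on few cells, since leaving out cell 8 without micronuclei gave 0.16; this was also the cell with most of the Rnf31 reads. At least 5 reads were found in 6 of 21 micronucleated cells and 5 of 14 cells without micronuclei.

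Traf2 and Birc2 encode the adaptor and the ligase that together place lysine-63 chains on RIPK1. Traf2 (chr2:25517982-25546940, minus strand) had 443 reads in the micronucleated cells and 118 reads in cells without micronuclei, or 40.0 CPM (36.3 to 43.9) against 10.2 CPM (8.41 to 12.2), a log2 ratio of 1.88. Both medians per cell were 0, the highest values were 140.5 CPM in the micronucleated cells and 82.1 CPM in cells without micronuclei, and the groups overlapped. In micronucleated cells 3 cells (2, 7 and 13) held 70, 154 and 202 of the Traf2 reads, and in cells without micronuclei cell 11 held 83 of the 118. Leaving out micronucleated cell 13 gave a log2 ratio of 1.27, and leaving out cell 11 without micronuclei gave 3.21. The equal-weight log2 ratio was 0.58 and the difference of mean log2 levels 0.12, and at least 5 reads were found in 4 of 21 micronucleated cells and 3 of 14 cells without micronuclei. Birc2 (chr9:7818227-7837064, minus strand) had 79 reads in the micronucleated cells and 33 reads in cells without micronuclei, or 7.13 CPM (5.64 to 8.88) against 2.84 CPM (1.96 to 3.99). Its log2 ratio was 1.08, and it was 0.56 without micronucleated cell 10, the cell with macrophage markers, which held 30 of the reads, 0.68 with equal weight, and 2.68 without cell 9 without micronuclei, which held 30 of the 33 reads of its group. At least 5 Birc2 reads were found in 3 of 21 micronucleated cells and 1 of 14 cells without micronuclei.

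**Figure D4:**
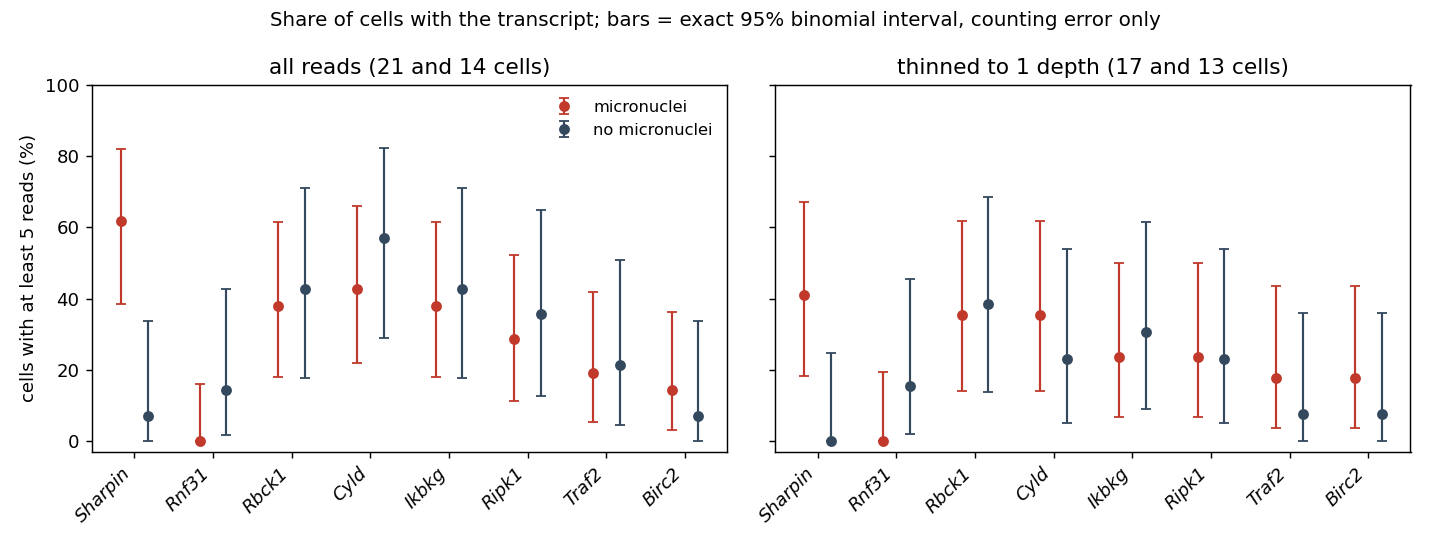
Share of cells with at least 5 reads for the 8 genes with all reads (left panel) and after thinning every cell to the same depth (right panel), micronuclei in red on the left of each pair and no micronuclei in dark on the right; bars are 95% exact binomial intervals for counting error only. Sharpin is at 61.9% against 7.14% with all reads and 41.2% against 0% after thinning, and the intervals of the other 7 genes overlap widely. The Sharpin intervals lie apart with all reads and overlap after thinning (18.4 to 67.1% against 0 to 24.7%).

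Of the 6 measured genes of the set, 5 had a higher and 1 a lower summed level in micronucleated cells, where 56.0% of all measured genes were higher. At least 2-fold higher were 3 of them, Sharpin, Cyld and Traf2, against 22.9% of all 8390 measured genes, and 0 were at least 2-fold lower, against 14.7%. The same 3 were 2-fold higher with a sign that held under equal weights and each left-out cell, against 20.2% of measured genes, and 0 were lower by that rule, against 10.8%. Since the genes were picked with this contrast known, nothing is read from these counts. In detection, Sharpin was the sole measured gene of the 6 with a positive difference beyond the central 95% of all genes. The order of levels per kilobase of exon differed between the groups. In micronucleated cells it was Sharpin and Rbck1, then Traf2 at 13.04, Ikbkg at 6.97, Cyld at 6.29, Ripk1 at 2.73, Birc2 at 1.96 and Rnf31 at 0.104 CPM per kilobase. In cells without micronuclei Rbck1 came first, then Rnf31 at 6.42 (mostly from cell 8), Ikbkg at 4.69, Ripk1 at 4.02, Traf2 at 3.32, Cyld at 2.79 and Birc2 at 0.781, with Sharpin last. Per kilobase, Sharpin had 36.8 CPM in the micronucleated cells and 0.497 CPM in cells without micronuclei, while Rbck1 had 35.9 CPM in micronucleated cells and 31.4 CPM in cells without. In sums per kilobase the 2 accessory subunits stood at like levels in the micronucleated cells and far apart in cells without micronuclei. The second part restates the contrast for which Sharpin was picked. Without micronucleated cell 11 the group had 33.4 CPM of Sharpin and 31.5 CPM of Rbck1, before scaling to exon length. As Rbck1 has more exon bases (2542 against 1734), the likeness per kilobase rested on that cell. Medians per cell over all micronucleated cells were 32.5 CPM for Sharpin and 17.4 CPM for Rbck1.

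Other genes of the pathway were taken from 9 lists covering receptors, adaptors, chain editors, kinases with their adaptors, NF-κB factors, cell death, ubiquitin conjugation, NF-κB activation by DNA damage, and NF-κB targets. Of 82 listed genes 75 were in the table, and Tnf, Lta, Traf1, Ube2d2, Ccl20, Cxcl1 and Lcn2 were not analysed here. Of the 54 measured, 34 were higher and 20 lower in micronucleated cells, where 56.0% of all measured genes were higher, with 15 at least 2-fold higher and 9 at least 2-fold lower. Against 22.9% and 14.7% of all measured genes these shares are close to the background, and the median log2 ratio of 0.24 lies near the 0.15 of all genes. With equal weight per cell 10 were 2-fold higher and 3 lower, against 15.7% and 10.5% of all measured genes. After thinning, where 40 were measured, 5 were higher and 5 lower, against 15.3% and 9.91%.

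Among receptors, Tnfrsf1a (TNF receptor 1, which assembles the complex described above) was read in more micronucleated cells. It had 48.2 CPM (44.2 to 52.4) in the micronucleated cells and 20.5 CPM (17.97 to 23.3) in cells without micronuclei, a log2 ratio of 1.19, with medians per cell of 48.2 CPM with micronuclei and 3.21 CPM without, and at least 5 reads in 14 of 21 micronucleated cells and 6 of 14 cells without micronuclei. Leaving out micronucleated cell 14 gave 0.67, and leaving out the 6 cells of few genes or many mitochondrial reads gave 1.72. Tnfrsf1b, TNF receptor 2, had 18.6 CPM in the micronucleated cells and 4.82 CPM in cells without micronuclei, and had at least 5 reads in 4 micronucleated cells and 2 cells without micronuclei. Cell 10, with the macrophage markers, held 25.2% of the Tnfrsf1b reads, and the log2 ratio of 1.75 was 1.30 without it; it was 1.16 with equal weight, 0.68 as a difference of mean log2 levels and 2.92 without cell 10 without micronuclei. Of the 3 measured receptors 2 were at least 2-fold higher and 0 lower, against 22.9% and 14.7% of all measured genes.

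Of the 6 measured adaptors and ligases, 3 were at least 2-fold higher, each from few cells, and 2, Xiap and Traf3, at least 2-fold lower. Over all measured genes the shares were 22.9% higher and 14.7% lower. Traf6, the lysine-63 ligase of interleukin-1 and Toll-like receptors, had 76.1 CPM in the micronucleated cells and 4.82 CPM in cells without micronuclei (log2 ratio 3.73), with at least 5 reads in 4 micronucleated cells and 1 cell without micronuclei, and 48.0% of its reads in micronucleated cell 11. It was 2.87 without that cell, 6.27 without cell 5 without micronuclei and 6.38 without the 6 cells of few genes or many mitochondrial reads. Tradd, the adaptor that binds TNF receptor 1, had 31.9 CPM in the micronucleated cells and 2.15 CPM in cells without micronuclei (3.38), from 6 micronucleated cells and 1 without micronuclei, and micronucleated cell 21, a cell of few genes or many mitochondrial reads, held 53.6% of its reads. Tradd was 2.27 without that cell, 2.35 without all 6 such cells and 4.50 without cell 13 without micronuclei. Myd88, the adaptor of Toll-like and interleukin-1 receptors, had 23.4 CPM in the micronucleated cells and 0.947 CPM in cells without micronuclei (3.65), from 6 micronucleated cells and 1 without micronuclei. Myd88 was 2.07 with equal weight, 3.01 without micronucleated cell 7 and 4.61 without cell 12 without micronuclei. As differences of mean log2 levels the 3 had 1.51, 1.46 and 1.57, and their medians per cell were 0 in both groups. Xiap, an inhibitor of caspases, had 36.9 CPM in the micronucleated cells and 163.8 CPM in cells without micronuclei (-2.12), from 12 micronucleated cells and 9 without micronuclei, and lay between -2.48 (without micronucleated cell 13) and -1.37 (without cell 8 without micronuclei). Traf3, the adaptor that restrains the noncanonical NF-κB pathway, was at -1.25, but cell 11 without micronuclei held 54.1% of the reads, and Traf3 was 0.20 without that cell and -0.63 with equal weight.

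The chain editors and binders included Tax1bp1, which carries the editor A20 to its targets, at 204.0 CPM in the micronucleated cells and 95.9 CPM in cells without micronuclei (log2 ratio 1.08, equal weight 0.44, mean log2 0.79). Tax1bp1 overlaps Gm43966 on the opposite strand. Tnip2, a binder of linear chains, had 11.6 CPM in the micronucleated cells and 21.96 CPM in cells without micronuclei (-0.86), but the equal-weight value was -0.05, and it was -2.68 without micronucleated cell 10 and -0.16 without cell 11 without micronuclei. Of the kinases, Chuk, which encodes IKKα, was lower, at 34.1 CPM (30.8 to 37.7) in the micronucleated cells and 83.9 CPM (78.7 to 89.3) in cells without micronuclei. Its log2 ratio was -1.27, between -1.83 (without micronucleated cell 7) and -0.77 (without cell 8 without micronuclei), and it was detected in 8 of 21 micronucleated cells and 10 of 14 cells without micronuclei. By at least 2-fold, 22.9% of all measured genes were higher and 14.7% lower. Of 7 measured genes of the list of kinases and their adaptors, 1 was at least 2-fold higher and 1, Chuk, at least 2-fold lower. The higher one was Tank, an adaptor of the kinase TBK1, at 1.09, which was -0.40 without micronucleated cell 13 and 0.29 with equal weight.

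Of 7 NF-κB factors and inhibitors measured, 3 were at least 2-fold higher and 1, Nfkb2, at least 2-fold lower. The shares over all measured genes were 22.9% and 14.7%. Nfkb2, which encodes p100, was at -1.05, but it was 1.19 without cell 4 without micronuclei and 0.19 with equal weight, and it shares 830 exon bases with genes on the opposite strand. Nfkbib, the inhibitor IκBβ, had 96.8 CPM (91.1 to 102.8) in the micronucleated cells and 15.5 CPM (13.3 to 17.9) in cells without micronuclei. Its log2 ratio was 2.57 (1.39 with equal weight, 3.18 without cell 13 without micronuclei), with detection in 12 of 21 micronucleated cells and 3 of 14 cells without micronuclei, but Nfkbib shares 314 exon bases with Ccer2 on the opposite strand. Rel, which encodes c-Rel, had 136 reads in the micronucleated cells and 1 read in cells without micronuclei, with 65.7% of the reads in micronucleated cell 11. Its log2 ratio was 3.61, or 2.37 without that cell and 1.52 as a difference of mean log2 levels, and it was detected in 5 micronucleated cells and 0 cells without micronuclei. Rela, which encodes the p65 subunit, had 59.0 CPM in the micronucleated cells and 25.1 CPM in cells without micronuclei (log2 ratio 1.198), from 12 micronucleated cells and 4 without micronuclei. The Rela value was 0.17 with equal weight and -0.078 after thinning, so its direction did not hold at equal depth. It was 0.56 without micronucleated cell 13, 2.57 without cell 1 without micronuclei and 2.53 without all 6 cells of few genes or many mitochondrial reads.

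Cell death genes downstream of the receptor included Ripk3, the kinase that starts necroptosis together with RIPK1. Ripk3 had 156.6 CPM (149.3 to 164.2) in the micronucleated cells and 46.0 CPM (42.2 to 50.1) in cells without micronuclei, a log2 ratio of 1.75. Its median and highest value per cell were 108.9 and 560.6 CPM in micronucleated cells, against 10.3 and 506.2 CPM in cells without micronuclei, so the groups overlapped at the top. Ripk3 was detected in 20 of 21 micronucleated cells and 6 of 14 cells without micronuclei, the second largest difference of all measured genes at 52.4 points, shared with 1 other gene. At equal depth it was detected in 14 of 17 micronucleated cells and 6 of 13 cells without micronuclei, and the equal-weight log2 ratio was 0.57, while the difference of mean log2 levels was 2.57. Casp8, the protease that cleaves RIPK1 and RIPK3, had 39.1 CPM (35.5 to 42.9) in the micronucleated cells. In cells without micronuclei it had 9.99 CPM (8.25 to 11.98), a log2 ratio of 1.87. These reads came from 9 micronucleated cells and 3 without micronuclei with at least 5 reads each, and from cells with fewer. The Casp8 ratio was 1.40 without micronucleated cell 13, which held 31.3% of the reads, and 3.23 without cell 4 without micronuclei. As a difference of mean log2 levels it was 1.48. Cflar, the inhibitor of caspase-8 called c-FLIP, had 33.7 CPM in the micronucleated cells and 74.1 CPM in cells without micronuclei (-1.12), from 14 micronucleated cells and 10 without micronuclei, but it was -0.48 with equal weight, -0.78 without cell 6 without micronuclei, and 0.12 as a difference of mean log2 levels. Of 5 measured genes of this list, 3 were at least 2-fold higher (Casp8, Ripk3 and Mlkl) and 1 lower (Cflar). The shares over all measured genes were 22.9% and 14.7%. Mlkl, the executor of necroptosis, was at 2.26, from 3 micronucleated cells and 2 without micronuclei, but at 0.03 with equal weight and 1.23 without micronucleated cell 9.

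Enzymes and genes of ubiquitin itself differed less. Of 9 measured genes, 5 were higher and 4 lower, where 56.0% of all measured genes were higher. The sign held with equal weight and each cell left out for 4 of the higher and 4 of the lower ones. The share of all measured genes that keep their sign at any size was not counted, so nothing is read from this. By size, 0 were at least 2-fold higher or lower, against 22.9% and 14.7% of all measured genes. Ubb, a polyubiquitin gene, had 1002 CPM in the micronucleated cells and 522.9 CPM in cells without micronuclei (log2 ratio 0.94), and Uba1, the enzyme that activates ubiquitin, had 218.1 CPM in micronucleated cells against 134.3 CPM in cells without (0.70). DNA damage can activate NF-κB through the ligase PIASy, which modifies NEMO, and through the scaffold ELKS. Pias4, which encodes PIASy, had 23.2 CPM (20.4 to 26.2) in the micronucleated cells and 2.76 CPM (1.88 to 3.89) in cells without micronuclei (2.69), from 6 micronucleated cells and 2 without micronuclei, and was 3.61 without cell 8 without micronuclei and 1.92 as a difference of mean log2 levels. Erc1, which encodes ELKS, had 80.3 CPM (75.1 to 85.7) in the micronucleated cells and 20.5 CPM (17.97 to 23.3) in cells without micronuclei (1.92), from 11 micronucleated cells and 6 without micronuclei. Erc1 was 2.89 without cell 11 without micronuclei and 1.06 as a difference of mean log2 levels, and it shares 1919 exon bases with Gm44317 on the opposite strand. Of the 4 measured genes of this list, 2 were at least 2-fold higher and 1, Parp1, at least 2-fold lower. The shares over all measured genes were 22.9% and 14.7%. Parp1, a sensor of DNA breaks, was at -1.23, but at 0.07 with equal weight and -0.36 without cell 4 without micronuclei, which held 38.8% of its reads.

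Of 9 measured NF-κB targets, 3 were higher and 6 lower, where 56.0% of all measured genes were higher. The sign held with equal weight and each cell left out for 1 of the higher and 2 of the lower ones. Here too the share of all measured genes that keep their sign was not counted, and nothing is read from this. By size, 0 were at least 2-fold higher and 3 were at least 2-fold lower (Ccl7, Cxcl5 and Sod2), against 22.9% and 14.7% of all measured genes, with a median log2 ratio of -0.46. Cxcl5, a chemokine for neutrophils, was at -1.48 from 3 cells in each group, and cell 8 without micronuclei held 63.5% of the Cxcl5 reads. It was 0.86 without that cell and -3.76 without micronucleated cell 9. Ccl7, a chemokine for monocytes, had 180.3 CPM (172.5 to 188.4) in the micronucleated cells and 484.8 CPM (472.2 to 497.7) in cells without micronuclei (log2 ratio -1.42). The Ccl7 ratio lay between -2.04 (without micronucleated cell 14) and -1.11 (without cell 10 without micronuclei). Ccl7 was detected in 13 of 21 micronucleated cells and 11 of 14 cells without micronuclei. Sod2, the mitochondrial superoxide dismutase, had 55.8 CPM (51.5 to 60.4) in the micronucleated cells and 192.8 CPM (184.9 to 201.0) in cells without micronuclei (-1.77), but was at -0.92 with equal weight and -0.89 as a difference of mean log2 levels, under 2-fold, with medians per cell of 65.1 CPM with micronuclei and 169.9 CPM without. Tnfaip2, a gene induced by TNF, stood the other way at 29.2 CPM in the micronucleated cells and 15.4 CPM in cells without micronuclei (0.88), and shares 150 exon bases with Gm40578 on the opposite strand.

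**Figure D5:**
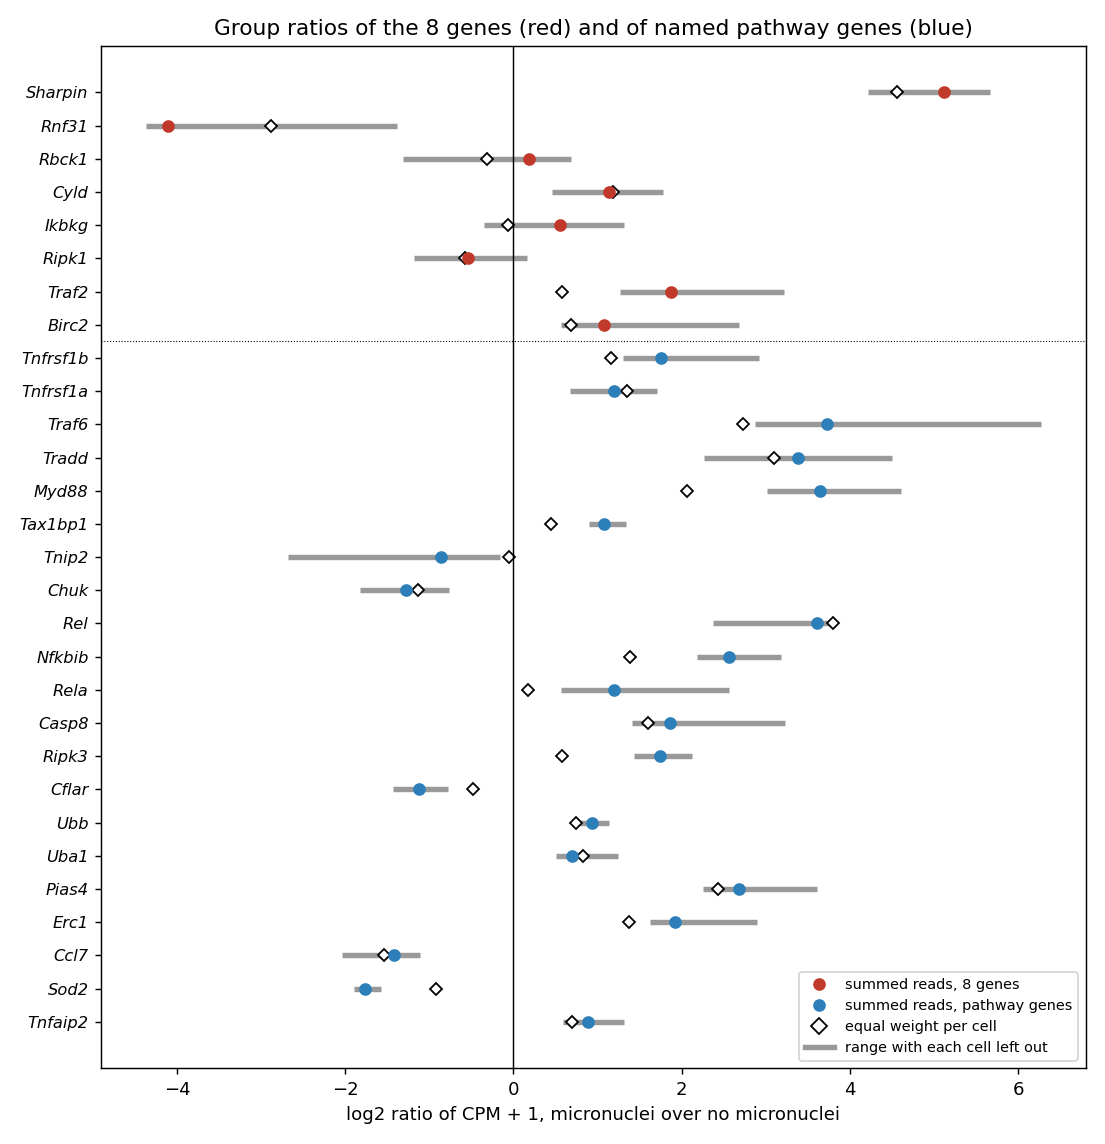
log2 ratio of CPM + 1, micronuclei over no micronuclei, for the 8 genes (red) above the dotted line and for named pathway genes (blue) below it; circles are summed reads, diamonds equal weight per cell, and grey bars the range with each cell left out. Sharpin lies at 5.12 with its whole bar to the right of 0, Rnf31 at -4.10 with its bar to the left, and the bars of Rbck1, Ikbkg and Ripk1 cross 0.

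Genes whose levels were most like that of Sharpin across cells were sought among 3810 measured genes with at least 5 reads in 50% of the cells. Over 35 cells the highest Spearman correlations were 0.57 for Setd5, 0.54 for Scfd1, and 0.52 for each of Rassf1, Ahsa1 and Gm12715. The 35 cells fall into groups that differ in Sharpin, and within the 21 micronucleated cells the same genes had 0.28, 0.44, 0.20, 0.29 and 0.51. After thinning, over 30 cells, the values were 0.44, 0.41, 0.42, 0.44 and 0.55, and 1 of the 5 stayed among the 5 most alike. Rassf1, a tumour suppressor with a Ras association domain, had 154.8 CPM in the micronucleated cells and 20.3 CPM in cells without micronuclei, with detection in 15 of 21 micronucleated cells and 5 of 14 cells without micronuclei. Ahsa1, an activator of the chaperone HSP90, had 246.0 CPM in the micronucleated cells and 80.5 CPM in cells without micronuclei, with detection in 20 micronucleated cells and 7 cells without micronuclei. Scfd1, which works in transport between endoplasmic reticulum and Golgi, had 92.2 CPM in the micronucleated cells and 22.8 CPM in cells without micronuclei. Within micronucleated cells Sharpin had a Spearman correlation of -0.47 with the number of genes detected per cell, and 0.36 in the 14 cells without micronuclei. The latter value rests on the 2 cells with any Sharpin read, as the other 12 were at 0, and the 2 values cannot be compared. The part of cell quality in the differences given here was not tested beyond the values without the cells named above.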

How the data were processed

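The authors deposited raw read counts per gene for 19147 features, of which 62 are spike-ins. Per the submitters' processing notes, STAR was used with the GRCm38.p5 build; the sources used here do not give versions or the strand setting of the counting. Counts of genes that overlap others are therefore uncertain. Reads were summed per group and scaled to CPM without spike-ins. The fold for a call was 2 on the log2(CPM + 1) scale. All 35 cells were used; a doublet caller was not run, and of 595 pairs of cells 0 were identical. Thinning drew 119337 reads per cell. The members and gene lists were chosen with earlier results of these data known. Named genes are the 8, up to 3 per list with the largest ratio of one sign under summed reads, equal weights and each cell left out, and the 5 most like Sharpin; some genes that this rule names are not reported here; Traf3, Xiap, Tank, Nfkb2, Mlkl, Cxcl5 and Parp1 were named after their values were seen. Coordinates are from GENCODE on GRCm38. As alternatives, cells were weighted equally or averaged as log2 CPM, sums were scaled by TMM or median-of-ratios factors, 0.1 or 5 CPM was added, mitochondrial reads were left out of totals, cells were thinned, filters and read minimums were changed, and each cell was left out; leaving out the cells of low quality or with macrophage markers, and 1 read after thinning, were added after seeing the data. R 4.3.3 with edgeR 4.0.16 gave the TMM factors and Python 3.11.15 with scipy 1.17.1 and pandas 2.3.3 the rest; the ratios were tested on simulated data.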

Additional observations from a re-analysis of the deposited data

How the results depend on the processing

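The Sharpin log2 ratio of 5.12 stayed positive under every alternative run. It was 3.74 as a difference of mean log2 CPM, 6.06 with 0.1 CPM added, 3.55 with 5 CPM added, and 4.21 to 5.67 with each cell left out. Its difference in detection stayed between 28.6 and 66.7 points over other read minimums, thinning and left-out groups of cells, and between 52.9 and 61.9 points with each cell left out. Of the pathway genes 15 were at least 2-fold higher; this count was 5 after thinning, 26 with no filter, 8 with the stricter filter, and 12 to 19 with each cell left out. The count of 9 at least 2-fold lower was 3 with equal weights, 3 with mean log2 CPM, 5 after thinning, and 6 to 11 with each cell left out. Thinning and the filters test other numbers of genes (40 after thinning); for the remaining changes the cause was not tested. Rela reversed to -0.078 after thinning and Cflar to 0.12 with mean log2 CPM. Tnip2, at -0.86 in the main setting, turned to 0.19 with mean log2 CPM. Rbck1 turned to -0.31 with equal weight and -0.32 after thinning. Ikbkg turned to -0.07 with equal weight, -0.46 with mean log2 CPM and -0.05 after thinning. No paired analysis was possible because replicate numbers were given in accession order and no result comes from a test. Cells at 0 with few reads limit what can be said of Rnf31, Traf2 and Birc2, and each group is 1 sample.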
